A study of Mus musculus with 12 samples.

Results

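The regions described here are the stretches of open chromatin within 1 kb of the transcription start of a protein-coding gene in mouse hepatocytes, 19125 of 138502 tested regions (13.8%). The assay was ATAC-seq (a transposase cuts and tags DNA that is not wrapped in nucleosomes), and each of 12 peak lists came from the hepatocytes of 1 mouse. Peaks of the 12 lists were merged where they overlapped, and a region was tested where at least 3 lists held it. Of the 19125 regions, 13093 contained a start and 6032 lay 1 to 1000 bp from the nearest one. The strand of the nearest gene was known for 14923. The other 4202 were no more than 1 kb from one of the ends of a gene whose strand was not at hand. Some of these are therefore gene 3′ ends. Single regions of this kind are named below as lying at a gene end, except at marker genes of cell types, where this is not marked.

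The 4 groups held 3 mice each. Floxed controls were FBXL5F/F mice, in which both Fbxl5 alleles carry recombination sites, fed standard chow or chow containing 0.1% DDC over 2 weeks. Fbxl5-deleted mice were Alb-Cre/FBXL5F/F on the same 2 diets, with Cre driven by the albumin promoter and therefore aimed at hepatocytes. All 12 mice carried the floxed alleles, so an effect of the alleles themselves cannot be told apart from the baseline, and no group with Cre alone is analysed here. DDC (3,5-diethoxycarbonyl-1,4-dihydrocollidine) is a porphyrinogenic, cholestatic compound, and FBXL5 is the ubiquitin ligase subunit that removes iron regulatory protein 2 when iron is sufficient. The labels give no age, sex or strain. In a pooled cell preparation, fewer cells with an open region and less openness per cell cannot be told apart.

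A promoter is where general transcription factors and RNA polymerase II assemble, and the stretch just before the start is usually kept free of nucleosomes. In mammals most promoters of broadly used genes lie in CpG islands and are open in nearly every tissue, while promoters of tissue-restricted genes are often CpG-poor and may carry a TATA box. Enhancers, which mostly lie far from starts, are the more cell-type-specific part of open chromatin.

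Each value below is the log2 fold enrichment of a region's strongest peak over the background of its own library, after its rank in the library was mapped to a scale common to all 12 lists. Regions that a list did not hold were set to a floor of 1.27 log2. Values are therefore relative to the other regions of the library. In the 12 lists 137004 to 261938 peaks were present, and an equal number of the strongest was taken from each. Libraries 1 and 3 of the Fbxl5-deleted standard-diet group differed from the rest, with 261938 and 260515 listed peaks against 137004 to 202874 in the other 10. Counts of calls, library values and calls at named regions are also given without these 2 libraries, which leaves 1 mouse in that group, taken to vary as the others do.

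The promoter sequences of 6 genes are shown because their regions were among those with the largest rises or falls on DDC in floxed controls, or had the highest values of all promoter regions, and overlap the sequence printed. Each runs 5′ to 3′ along the gene's strand from 250 bases before to 50 bases after the start (RefSeq, GRCm38.p6, the assembly of mm10). Capitals mark matches to the letters of 14 short motifs, on either strand.
Emp1 (chr6:135362681-135362980, plus strand): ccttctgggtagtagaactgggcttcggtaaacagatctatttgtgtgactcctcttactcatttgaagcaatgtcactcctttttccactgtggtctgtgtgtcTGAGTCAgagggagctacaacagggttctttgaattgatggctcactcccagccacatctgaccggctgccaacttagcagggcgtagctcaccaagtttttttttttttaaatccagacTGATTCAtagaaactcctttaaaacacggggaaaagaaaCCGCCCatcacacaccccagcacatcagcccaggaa
Fbxw17 (chr13:50417614-50417913, plus strand): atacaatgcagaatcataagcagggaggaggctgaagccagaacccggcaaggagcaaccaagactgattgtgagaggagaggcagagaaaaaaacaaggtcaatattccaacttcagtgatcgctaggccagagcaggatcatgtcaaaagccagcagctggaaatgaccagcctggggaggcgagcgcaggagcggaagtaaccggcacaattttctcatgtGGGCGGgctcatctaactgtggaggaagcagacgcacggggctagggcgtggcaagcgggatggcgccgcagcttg
Postn (chr3:54359017-54359316, plus strand): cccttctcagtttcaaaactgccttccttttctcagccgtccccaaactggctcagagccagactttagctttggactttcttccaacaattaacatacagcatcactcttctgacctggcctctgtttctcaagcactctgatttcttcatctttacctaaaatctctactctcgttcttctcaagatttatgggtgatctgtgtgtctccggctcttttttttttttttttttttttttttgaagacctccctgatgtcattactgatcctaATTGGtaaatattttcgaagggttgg
Srprb (chr9:103202016-103202315, minus strand): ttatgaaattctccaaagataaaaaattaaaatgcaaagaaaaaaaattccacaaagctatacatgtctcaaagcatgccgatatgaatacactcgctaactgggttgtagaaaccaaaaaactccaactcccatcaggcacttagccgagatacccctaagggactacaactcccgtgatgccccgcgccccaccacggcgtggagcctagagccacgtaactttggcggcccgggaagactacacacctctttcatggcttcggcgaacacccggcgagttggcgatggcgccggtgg
Cep128 (chr12:91384360-91384659, minus strand): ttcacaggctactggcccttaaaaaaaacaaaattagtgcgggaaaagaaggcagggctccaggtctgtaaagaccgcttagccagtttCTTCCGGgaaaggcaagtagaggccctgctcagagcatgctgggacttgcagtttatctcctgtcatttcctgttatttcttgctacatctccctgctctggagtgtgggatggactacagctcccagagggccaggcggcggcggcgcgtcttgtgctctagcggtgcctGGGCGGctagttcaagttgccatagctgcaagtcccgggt
Zim1 (chr7:6696383-6696682, minus strand): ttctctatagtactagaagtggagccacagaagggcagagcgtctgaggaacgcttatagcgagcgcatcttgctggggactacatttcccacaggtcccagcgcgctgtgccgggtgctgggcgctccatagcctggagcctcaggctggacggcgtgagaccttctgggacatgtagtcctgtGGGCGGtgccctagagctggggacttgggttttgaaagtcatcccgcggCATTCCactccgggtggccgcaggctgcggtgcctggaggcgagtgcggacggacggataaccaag
The Emp1 sequence holds 2 matches to the AP-1 letters TGANTCA, at positions 106 and 226 from its 5′ end, and 1 to the SP/KLF letters GGGCGG at position 265. AP-1 is the Fos and Jun family of stress-responsive factors, and SP and KLF proteins bind GC boxes. Of the Postn sequence the first 50 bases lie in the called region, and its match to the NFY letters CCAAT, at position 275, lies outside it. Fbxw17 holds an SP/KLF match at 225, and Srprb no match to any of the 14. Cep128 holds an ETS match (CCGGAAG) at 90 and an SP/KLF match at 261, and Zim1 an SP/KLF match at 186 and a TEAD match (GGAATG) at 235. Of all 21045 promoters of 300 bases in the table, 46.7% hold the SP/KLF letters, 38.5% NFY, 13.5% TEAD, 11.7% ETS and 7.04% AP-1. The falling regions at Krt8 and Myh4 lie outside the printed window of their genes, downstream of the start, so those sequences are not shown.

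As a group, promoter regions were stronger and steadier than the other open regions of these hepatocytes. Of 21631 protein-coding genes, 14770 (68.3%) had at least 1 tested region within 1 kb of a start and 12916 (59.7%) had one in all 12 lists. Of the promoter regions 72.1% were in all 12 lists, against 40.1% of the other 119377 regions. The median promoter region was 859 bp wide and the median other region 445 bp. The median of the mean value over libraries was 3.00 log2 for promoter regions and 1.89 for the others, and the median SD between replicates was 0.190 and 0.265. Within each library the promoter median exceeded that of the other regions, by 1.05 ± 0.127 log2 on average (SD, n = 12 libraries, higher in 12 of 12, two-sided exact sign-flip permutation test, p = 0.000488, its lowest possible value). Restricted to regions present in all 12 lists it was 0.366 (same exact permutation test, p = 0.000488). Promoter regions made up 26% of the 100 strongest regions, 34.6% of the 1000 strongest and 35.1% of the 10000 strongest.

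**Figure D1:**
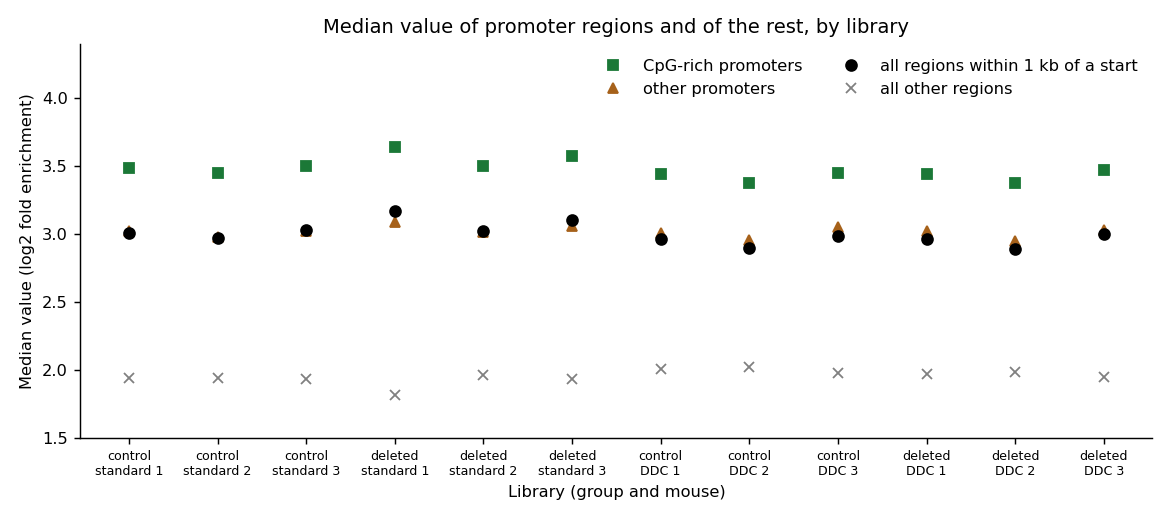
Median value (log2 fold enrichment on the common scale, vertical axis, which does not start at 0) in each of the 12 libraries, for all regions within 1 kb of a start (circles), all other regions (crosses), and starts with CpG-rich (squares) or other (triangles) promoter sequence. In every library the squares lie highest and the crosses lowest.

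The strongest promoter regions had nearly the same value in all 12 libraries, which their choice by the highest mean over these libraries favours. The promoter of Cep128, a centriole protein gene, had the highest mean value, at 4.95, 5.03 and 4.98 in the control standard-diet libraries, 5.11, 5.03 and 4.93 in control DDC, 4.98, 4.97 and 5.11 in Fbxl5-deleted standard and 4.91, 5.02 and 4.93 in Fbxl5-deleted DDC libraries. All 4 groups overlapped. Next came Zim1, an imprinted zinc finger gene, at 4.69 to 5.19 over the 12 libraries. The other 8 of the 10 highest were Mcm3 (a subunit of the replicative helicase), Hltf and Aplf (DNA repair), Trim21 (an antibody receptor and ubiquitin ligase), Scfd1 and Exoc4 (vesicle traffic), Xrcc1 (single-strand break repair) and Plgrkt, whose region also lies within 1 kb of the start of Cd274. Their single-library values ranged from 4.54 to 5.08. None of the 10 was called in any comparison, which the same choice favours. The list's hepatocyte genes stood lower: the start region of Alb, which encodes albumin, had a mean of 2.89 and that of Cyp2e1 one of 2.99.

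Within the window, summits gathered at the start itself. Per library, 16620 to 17773 kept peaks had their summit within 1 kb of a start of known strand, and the median summit lay 1 to 20 bp after the start. Between 39.7% and 45.2% of these summits fell within 100 bp of the start. This share was 43.4% on average in the 6 DDC libraries and 40.7% in the 6 standard-diet libraries, a difference of 2.72 percentage points (exact permutation test within genotype, two-sided, p = 0.01; adjusted p = 0.0267 over 8 such tests of library values, 4 of them added after the data were seen). Without both libraries that stood apart it was 1.91 points (exact permutation, p = 0.05). The lowest fold enrichment kept also differed between diets, at 2.54 to 2.84 on DDC and 1.43 to 2.47 on the standard diet, and its part in this result was not tested. Between genotypes the share differed by −0.706 points (exact permutation within diet, p = 0.295).

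**Figure D2:**
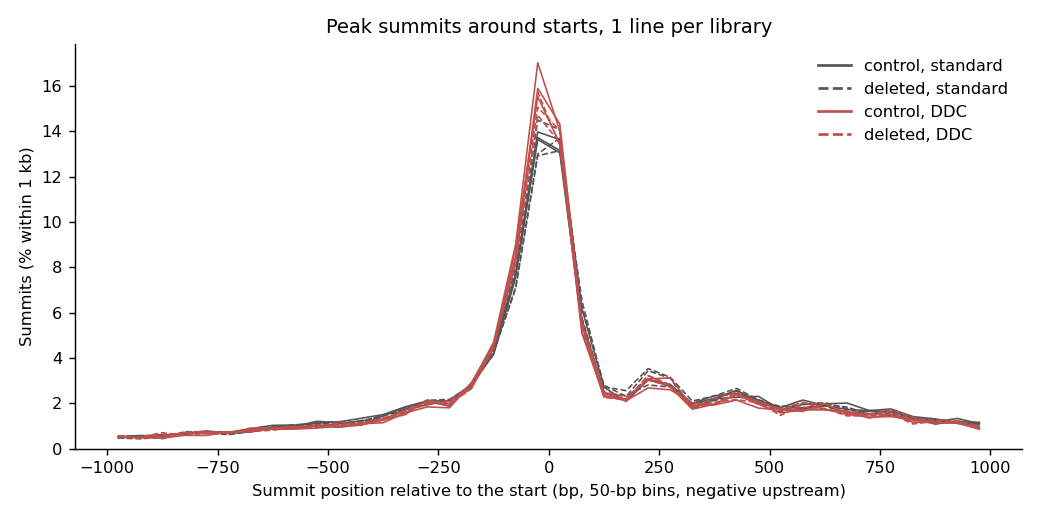
Percent of the summits within 1 kb of a start (vertical axis) by position relative to the start in 50-bp bins (horizontal axis, negative upstream), with 1 line per library. All 12 lines peak at the start, where the bin just upstream holds 12.9% to 17.0% of summits, and a low shoulder of 2.68% to 3.54% lies in the bin 200 to 250 bp downstream.

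Promoters with and without a tested region differed in sequence. A promoter was counted as CpG-rich where its 300 bases had a GC content over 50% and a CpG count over 0.6 of that expected from its C and G, which held for 9547 of 21045 starts. Of the CpG-rich starts 93.4% had a tested region within 1 kb, against 43.7% of the other 11498. The median of the mean value was 3.47 at CpG-rich starts with a region and 3.07 at the others. The TATA letters TATAAA were in 23.4% of promoters without a tested region and in 6.54% of those whose region was in all 12 lists. For the SP/KLF letters the shares were 16.3% and 65.1%, for ETS 3.33% and 17.7%, and for the NRF1 letters GCGCNTGCG 1.65% and 13.7%. NRF1 and ETS factors act at promoters of broadly used genes. Among regions in all 12 lists, split into 4 groups of equal size by value, ETS was in 8.72% of the lowest group and in 26.7% of the highest, and NFY in 30.8% and 49.3%. These shares follow base composition as well, and no test was made of them.

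Few promoter regions were called between the diets in floxed controls. Of 19125, 256 were higher and 135 lower on DDC (limma, Benjamini-Hochberg adjusted p under 0.05), 2.04% in all, while 7.02% of all tested regions were called in that comparison and 7.82% of the regions that are not promoters. Of all regions 4.67% were called higher and 2.35% lower, against 1.34% and 0.706% of promoter regions. Called promoter regions included Emp1, Postn and Ifi27l2b among those that rose and Krt8, Srprb and Cyp2d34 among those that fell. In Fbxl5-deleted mice 116 promoter regions rose and 89 fell, 1.07% in all, against 3.15% of all regions (2.41% higher and 0.739% lower). Of the 391 called in controls, 82 that rose and 18 that fell were absent from every list of the lower group, so their difference is taken from the floor value. Of these, 47 and 9 were in fewer than 3 lists outside the higher group, and so were tested because of the group where they are high. In Fbxl5-deleted mice 14 and 7 were absent from the lower group, 1 and 1 of them tested for that reason. Fitted to regions in all 12 lists alone, rises and falls were 85 and 93 in controls (47.8% higher) and 59 and 89 in Fbxl5-deleted mice (39.9% higher), so the excess of rises turned. The share called was below that of all regions in each of the 24 alternative analyses of either comparison, at 0.174 to 0.424 of it in controls and 0.189 to 0.534 in Fbxl5-deleted mice. The number called rested on single libraries: in controls it was 236, 174 and 191 without standard-diet library 1, 2 or 3 and 236 and 163 without DDC library 1 or 2. In Fbxl5-deleted mice it was 101 and 123 without standard-diet library 1 or 3, 31 without both, and 108, 74 and 110 without DDC library 1, 2 or 3. With the lowest kept fold enrichment of each library as a covariate, 54 were called in controls and 115 in Fbxl5-deleted mice. With fold enrichments not ranked, 84.0% of the calls in controls and 92.1% of those in Fbxl5-deleted mice were rises, against 65.5% and 56.6% with ranks, and the median difference of all regions was then 0.09 and 0.19 log2.

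The share called grew with distance from the start. In controls it was 1.75% for regions that contain a start, 2.69% at 1 to 1000 bp, 5.19% at 1 to 5 kb, 7.58% at 5 to 50 kb and 9.41% farther away. In Fbxl5-deleted mice the same classes had 1.04%, 1.14%, 2.15%, 3.42% and 4.19%. The 3448 other regions within 1 kb of a gene's 3′ end had 5.02% and 2.15%, close to the class at 1 to 5 kb and above the promoter regions. Without the 2 Fbxl5-deleted standard-diet libraries that differed from the rest, the latter's shares were 0.0993% for regions that contain a start, 0.298%, 0.456%, 0.941% and 1.23% with growing distance, and 0.58% at 3′ ends. Promoter regions at a gene end of unknown strand had 2.78% and 1.02% called, and those of known strand 1.84% and 1.09%.

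**Figure D3:**
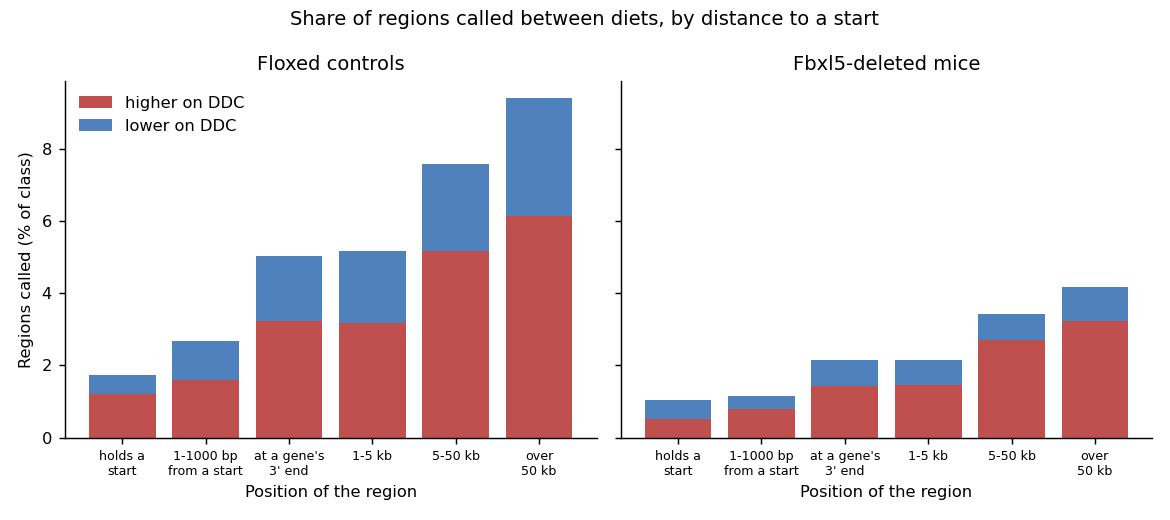
Percent of regions called between diets (vertical axis) in 6 classes of position, higher on DDC in red and lower in blue, for floxed controls (left) and Fbxl5-deleted mice (right). The bars grow from regions that contain a start (1.75% and 1.04%) to regions over 50 kb away (9.41% and 4.19%).

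The difference from other regions held at matched value. Over 10 groups of equal size by mean value, promoter regions were called less often than other regions in all 10 groups in controls. In the strongest group the shares were 0.99% and 6.21%, and in the next 1.25% and 9.25%. In Fbxl5-deleted mice they were called less often in 8 of the groups, with 0.758% against 4.13% in the strongest. The exceptions were the weakest group, where no region of either kind was called, and the fourth, with 1.4% against 1.34%. The mean absolute diet difference, averaged over the genotypes, was 0.208 log2 at promoter regions and 0.307 at the others, a gap of 0.0998 (exact permutation test within genotype, added after the data were seen, one-sided, p = 0.01, which is also its lowest possible value). Over the relabelled diets the median gap was 0.0584, and the replicate SD was larger at the other regions, as given above. Without any filter on how many lists hold a region, the gap was −0.000908 (exact permutation, one-sided, p = 0.29).

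**Figure D4:**
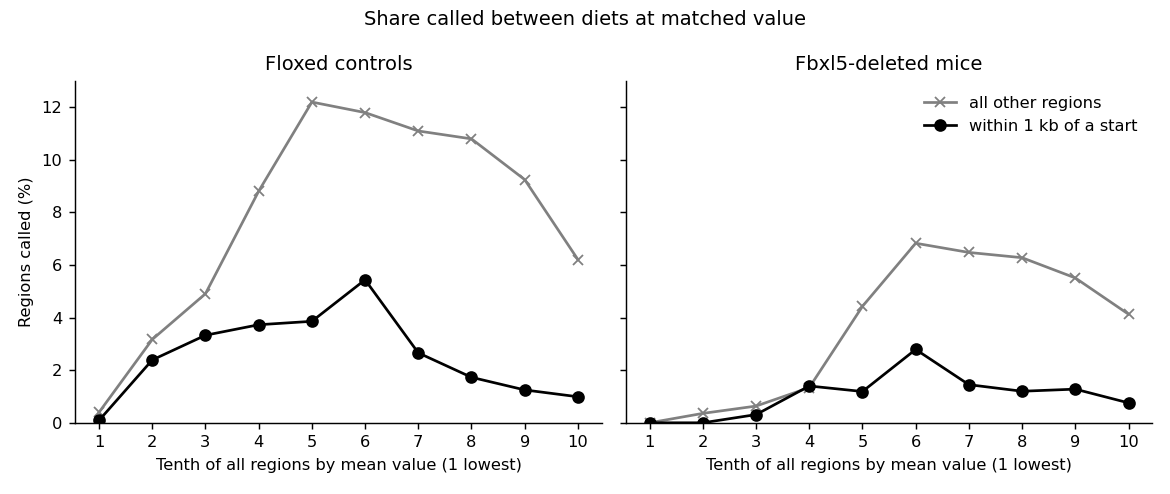
Percent of regions called between diets (vertical axis) in 10 groups of equal size by mean value over libraries (horizontal axis), for regions within 1 kb of a start (circles) and all other regions (crosses). In floxed controls (left) every circle lies below its cross. In Fbxl5-deleted mice (right) all do but those of the weakest and the fourth group.

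The promoter regions that rose most on DDC in floxed controls belonged to genes of mixed function. The largest rise among regions in all 12 lists was at an end of Pcmtd2, which encodes a protein-carboxyl methyltransferase domain protein (chromosome 2, 181828912 to 181829564, mm10). Its values were 2.41, 2.24 and 2.54 in control standard and 4.26, 4.76 and 4.19 in control DDC libraries, and 2.49, 2.46 and 2.56 in Fbxl5-deleted standard and 4.26, 4.59 and 4.41 in Fbxl5-deleted DDC libraries. All 6 DDC values lay above all 6 standard-diet values, by 2.01 ± 0.17 log2 in controls (SE, limma, adjusted p = 2.93e-06) and 1.92 ± 0.17 in Fbxl5-deleted mice (adjusted p = 1.38e-05).

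Emp1, an epithelial membrane protein gene, had a region across its start (chromosome 6, 135362366 to 135363161) at 1.84, 2.29 and 1.93 on the standard diet and 3.78, 3.59 and 3.57 on DDC in controls. The groups were far apart, and the difference was 1.63 ± 0.24 (limma, adjusted p = 0.000258). In Fbxl5-deleted mice the values were 2.70, 2.02 and 2.19 against 3.42, 3.25 and 2.75, a difference of 0.83 ± 0.24 that missed the threshold (limma, adjusted p = 0.057). The diet effects of the genotypes at Emp1 differed by −0.79, with an adjusted p of 0.849 in limma.

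Postn encodes periostin, a matrix protein of fibrotic tissue. The region 201 bp from its start (chromosome 3, 54358360 to 54359066) was at 3.71, 3.27 and 2.87 on the standard diet and 4.45, 4.57 and 4.55 on DDC in controls. It was at 3.16, 3.13 and 2.92 against 3.88, 4.17 and 3.98 in Fbxl5-deleted mice. It rose by 1.24 ± 0.17 and 0.94 ± 0.17 (limma, adjusted p = 0.000139 and 0.0036). Ifi27l2b, of an interferon-induced family with close copies, rose at a gene end by 1.29 ± 0.14 and 0.80 ± 0.14 (limma, adjusted p = 1.52e-05 and 0.00267).

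Rnf14 (a ubiquitin ligase), Barx2 (a homeobox factor) and Fbxw17 (an F-box gene) also rose in controls, by 1.48, 1.42 and 1.31, and in Fbxl5-deleted mice, by 1.62, 1.44 and 1.20. Rnf14 and Barx2 are regions at a gene end. The region at an end of Tbc1d31, a centrosomal gene, rose by 1.28 ± 0.26 in controls (limma, adjusted p = 0.00465), where standard-diet values of 2.04 to 2.52 lay below DDC values of 3.25 to 3.68. In Fbxl5-deleted mice its groups overlapped and the difference was 0.48 ± 0.26 (limma, adjusted p = 0.357).

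The largest fall in controls among called regions in all 12 lists lay in Krt8, which encodes keratin 8 of the hepatocyte cytoskeleton, 807 bp downstream of the start (chromosome 15, 102002866 to 102003535). Its values were 2.69, 2.90 and 2.86 on the standard diet and 1.30, 1.54 and 1.49 on DDC in controls, and 3.19, 3.00 and 3.21 against 1.66, 1.68 and 1.62 in Fbxl5-deleted mice. Every DDC value was below every standard-diet value, and the falls were −1.37 ± 0.23 and −1.48 ± 0.23 (limma, adjusted p = 0.000858 and 0.000982).

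Srprb, a subunit of the signal recognition particle receptor, had a region across its start (chromosome 9, 103201584 to 103202291) at 3.51, 3.71 and 3.65 on the standard diet and 2.52, 2.41 and 2.08 on DDC in controls. It fell by −1.28 ± 0.21 (limma, adjusted p = 0.000818). In Fbxl5-deleted mice the difference was −0.72 ± 0.21 (limma, adjusted p = 0.0704). The region 566 bp downstream of the start of Myh4, a skeletal muscle myosin gene, fell by −1.32 ± 0.26 in controls (limma, adjusted p = 0.00327) and stood at −0.69 ± 0.26 in Fbxl5-deleted mice (adjusted p = 0.161).

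At an end of Cyp2d34, a cytochrome P450 gene, the values were 4.11, 4.59 and 4.13 against 3.33, 3.44 and 2.77 in controls and 4.27, 4.09 and 4.06 against 3.12, 3.03 and 2.99 in Fbxl5-deleted mice. These are falls of −1.10 ± 0.17 and −1.09 ± 0.17 (limma, adjusted p = 0.000529 and 0.00119). Cyp4a12b, another P450 gene, fell at a gene end by −1.21 and −1.02, and Dnttip1, of a histone deacetylase complex, by −1.21 and −1.03. The calls of these genes in Fbxl5-deleted mice were lost in 7 and 5 of the 12 analyses that leave out 1 library. Cyp2d34 and Cyp4a12b lie in families of close copies, so their peaks are uncertain. Best3 (a chloride channel) and Dkk4 (a secreted Wnt inhibitor) fell in controls by −1.15 and −1.07, both at a gene end. In Fbxl5-deleted mice Dkk4 was just past the threshold at −0.90 ± 0.25 (limma, adjusted p = 0.0497). Best3 stood at −0.34 ± 0.26 there (limma, adjusted p = 0.529).

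**Figure D5:**
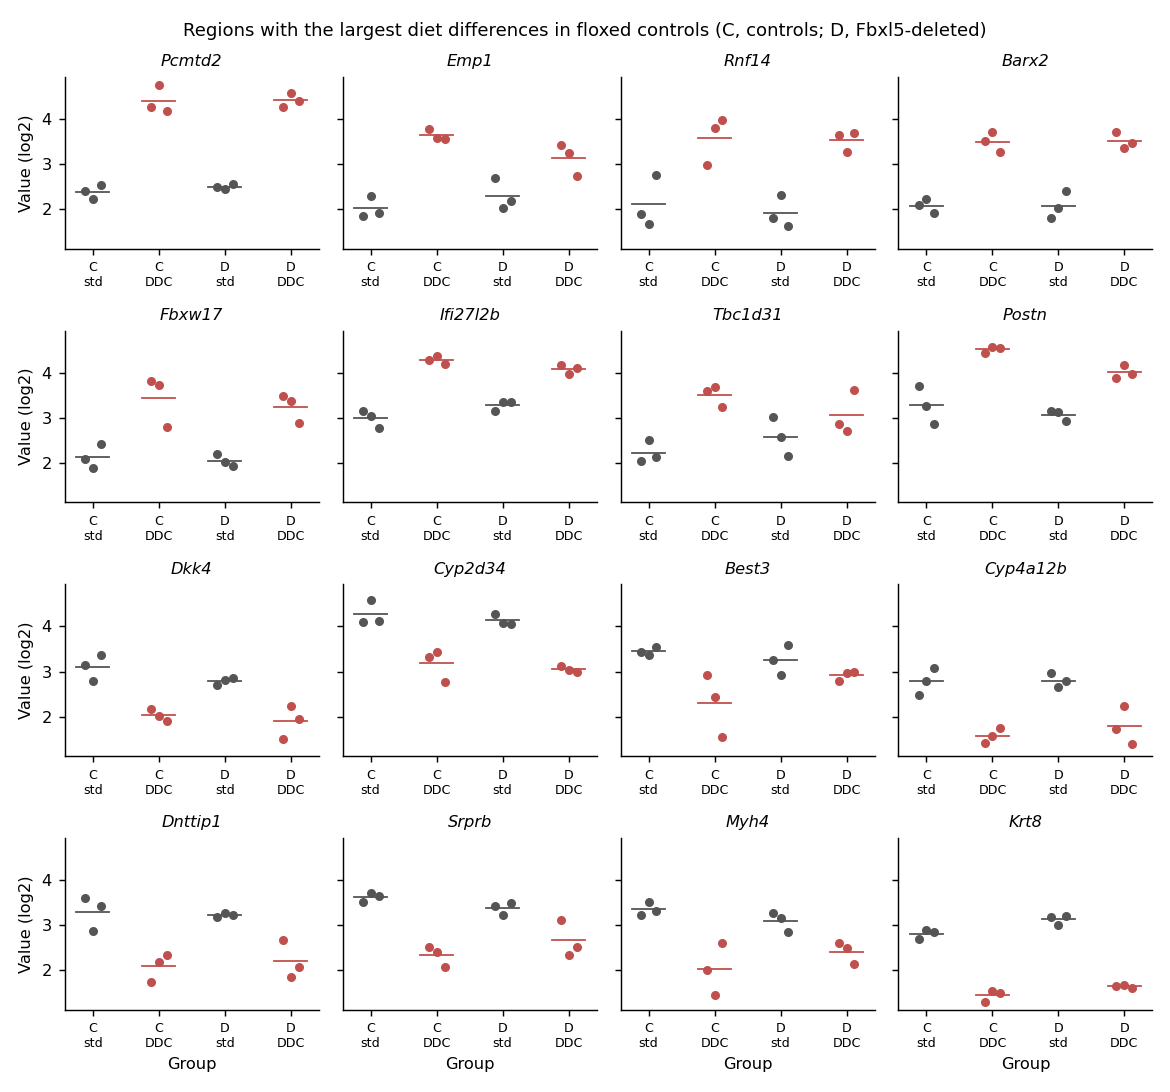
Value (log2, vertical axis) of the 8 regions with the largest rises and the 8 with the largest falls on DDC in floxed controls, among called promoter regions in all 12 lists. Points are libraries (mice), bars are group means of 3, grey is standard diet and red is DDC. In controls the diets do not overlap in any panel, which the choice of regions favours; in Fbxl5-deleted mice they overlap in the panels of Tbc1d31 and Best3.

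Some promoter regions were present on 1 diet only. In controls 235 were in all 3 DDC lists and no standard-diet list (1.23%, against 3.89% of all regions), and 186 the reverse (0.973%, against 1.79%). The p-value of such a region rests on the floor value and is not given. Called gains of this kind included Tg, the thyroglobulin gene, at a gene end (chromosome 15, 66851286 to 66851974), which was at 3.21, 3.79 and 3.44 on DDC. It was also in 3 DDC lists and 1 standard-diet list of Fbxl5-deleted mice (2.71, 2.99 and 3.40 against 1.85 in 1 library). Tmem100 (at a gene end), C5ar2 (a receptor of complement C5a) and Tlr1 (a receptor of bacterial lipopeptides) were called gains too. Called losses included Gtdc1, Tsga13, Crem (a cAMP-responsive repressor) and Ces3a, a liver carboxylesterase gene. The regions of Crem and Ces3a lie at a gene end. Ces3a was at 2.04, 2.32 and 2.38 in control and 2.90, 2.49 and 2.11 in Fbxl5-deleted standard-diet libraries, and absent from all 6 DDC lists. The calls at Ces3a and Crem in controls were lost in 5 and 2 of the 12 analyses that leave out 1 library.

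In Fbxl5-deleted mice 190 promoter regions were in all 3 DDC lists and no standard-diet list (0.993%, against 2.5% of all regions), and 60 the reverse (0.314%, against 0.64%). Called gains included Fblim1 (a filamin-binding adaptor), Sprr1a (a stress-induced epithelial protein), Lamb3 (a laminin chain) and Tnip1 (a partner of the NF-κB inhibitor A20). Tnip1 was absent from all 6 standard-diet lists of both genotypes and stood at 3.16, 2.56 and 2.18 in control and 2.63, 3.10 and 2.53 in Fbxl5-deleted DDC libraries. Sprr1a was at 3.23, 3.72 and 3.06 in control DDC and 2.56, 3.19 and 2.89 in Fbxl5-deleted DDC libraries, with 2 control standard-diet lists holding it at 2.09 and 1.73. Besides Ces3a, called losses included Slco1a1 (a bile acid and organic anion uptake transporter), Trmt12 (at a gene end) and Plxnb2. The calls at Slco1a1, Trmt12 and Plxnb2 were lost in 5, 5 and 4 of the 12 analyses that leave out 1 library.

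Among regions in all 12 lists, further rises in Fbxl5-deleted mice were at Ccdc15 (1.51), Dnmt1 (1.42), Ehd3 (1.29), Insm2 (1.29) and Fam83b (1.27). Dnmt1 encodes the maintenance DNA methyltransferase, and its region 793 bp from the start was at 1.61, 1.47 and 1.79 on the standard diet and 3.17, 2.76 and 3.22 on DDC. In controls it was at 1.78, 1.79 and 1.79 against 3.06, 3.01 and 2.93, so the diets did not overlap in either genotype. The rises were 1.42 ± 0.23 with Fbxl5 deleted and 1.21 ± 0.23 in controls (limma, adjusted p = 0.00141 and 0.00258). Further falls in Fbxl5-deleted mice were at Zfp612 (−1.24, but 0.03 with 50% reciprocal overlap), Kansl3 (−1.22), Tle6 (−1.13, lost in 5 of the 12 analyses without 1 library) and Klf6 (−1.09). The Zfp612 region lies at a gene end. Klf6, an immediate early zinc finger gene, fell across its start from 3.82, 3.87 and 3.92 to 2.87, 2.42 and 3.03. The Klf6 region was at 3.47, 3.52 and 3.75 against 3.09, 2.73 and 2.67 in controls, a fall of −0.75 ± 0.18 (limma, adjusted p = 0.0159) that was lost in 3 of the 12 analyses without 1 library.

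The diet comparisons of the genotypes share no library, so the sign and size of a difference in one are read separately from the other. Their calls are not separate, since all 4 groups share 1 estimate of the spread of each region. Of the 256 promoter regions that rose in controls, 57 (22.3%) were called higher in Fbxl5-deleted mice and 235 (91.8%) had a difference above 0 there, while 35.3% of all promoter regions did. Of the 135 that fell, 18 (13.3%) were called lower and 118 (87.4%) were below 0, against 64.0% of all promoter regions. The same regions are 49.1% of the 116 that rose and 20.2% of the 89 that fell in Fbxl5-deleted mice. The median difference of the 256 was 0.94 log2 in controls and 0.52 in Fbxl5-deleted mice. They were chosen by the former, so the latter alone is an independent measure. Without the 2 libraries that differed from the rest, 17 of the 256 were called higher and 227 (88.7%) were above 0 in Fbxl5-deleted mice (median 0.46), and 1 of the 135 was called lower and 111 (82.2%) were below 0.

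The promoter sequences of regions that rose and of regions that fell are set side by side here, with no test of their difference. In controls 30 of the 165 starts with a rising region (18.2%) were CpG-rich, and 50.7% of the 71 starts with a falling region. Of starts whose region was in 3 to 11 lists 30.3% were CpG-rich, and of those in all 12 lists 68.9%. The AP-1 letters were in 17% of starts with a rising region and in 8.45% of starts with a falling region in controls. They were in 8.39% and 4.57% of starts with a region in 3 to 11 and in all 12 lists. Of promoters without a tested region 10.9% held them. In Fbxl5-deleted mice 26.4% of 87 starts with a rising region and 77.6% of 67 with a falling region were CpG-rich, and 12.6% and 0% held the AP-1 letters. With only regions in all 12 lists the AP-1 shares were 12.9% (rising) and 6.56% (falling) in controls and 8.7% and 0% in Fbxl5-deleted mice. Calls at CpG-rich starts were 28 up and 31 down in controls (0.803% of regions), and at other starts 124 up and 30 down (3.41%). In Fbxl5-deleted mice they were 20 up and 44 down, and 58 up and 14 down (0.871% and 1.59%). Without the 2 libraries that differed from the rest, they were 3 up and 1 down, and 13 up and 1 down (0.0544% and 0.31%), and only 18 starts with a rising and 3 with a falling region remained (2 and 1 with the AP-1 letters). With unranked fold enrichments rises take a larger share of all calls, as given above.

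The value of CpG-rich promoters relative to the others also differed between diets. So did the lowest fold enrichment kept, as given above, and its part in this result was not tested. The median at CpG-rich starts exceeded that at other starts by 0.424 log2 on average in DDC libraries and by 0.493 in standard-diet libraries (−0.0683, two-sided exact permutation inside each genotype, p = 0.005, adjusted p = 0.0267 over the 8 tests). Without both libraries that stood apart it was −0.0515 (exact permutation, p = 0.0125). Between genotypes it was 0.0329 higher with Fbxl5 deleted (exact permutation within diet, p = 0.025, adjusted p = 0.05 over the 8 tests) and 0.016 without those libraries (exact permutation, p = 0.1). The median of all promoter regions averaged 2.95 in DDC libraries against 3.05 without DDC, lower by −0.10 (p = 0.01 by exact permutation of diets inside each genotype, adjusted p = 0.0267). It turned to 0.0824 with unranked fold enrichments (exact permutation, p = 0.125) and was −0.0636 without both libraries (p = 0.125 in the same exact test). Kept peaks within 1 kb of a start were 16.2% of all on DDC and 16.5% on the standard diet, a difference of −0.268 points (exact permutation, p = 0.255), and −0.207 points between genotypes (exact permutation, p = 0.39).

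Promoters were also described by the distal regions of their genes, with no test of the difference. In controls 2095 genes had at least 1 distal region within 50 kb that rose and none that fell, and a promoter region. Their strongest promoter region was called higher in 2.1% and lower in 0.764%, with a median difference of −0.05 log2. Of 8186 genes without a called distal region 1.23% and 0.562% were called, with a median of −0.03. In Fbxl5-deleted mice the corresponding genes numbered 1340 and 9914, with 1.34% and 0.575% called higher and 0.896% and 0.464% called lower. Of 1016 genes with a distal fall and no distal rise in controls, 0.787% had a promoter region called higher and 0.689% one called lower, and of 360 in Fbxl5-deleted mice 0% and 0%. Of the 88 genes with 3 or more distal rises in controls, 1 had a promoter region that rose and 2 had one that fell.

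No promoter region was called between the genotypes. On the standard diet 0 of 19125 were called by limma (0.000722% of all tested regions, a single region elsewhere). There 1210 had an unadjusted p under 0.05 (6.33%, against 8.33% of the other regions). On DDC 0 were called (0% of all regions), with 697 at an unadjusted p under 0.05 (3.64%, against 6.31%). For the difference of the diet effects 0 were called (0%), with 652 at an unadjusted p under 0.05 (3.41%, against 6.25%). The lowest adjusted p of a promoter region was 0.14, 0.305 and 0.849. Without Fbxl5-deleted standard-diet library 2, 6 promoter regions were called between genotypes on the standard diet (0.0314%, against 0.0686% of all regions). With 50% reciprocal overlap in the merging, 21, 24 and 13 were called in the 3 comparisons. These are 0.124%, 0.141% and 0.0765%, against 0.125%, 0.194% and 0.0626% of all regions. With only peaks of −log10 q of at least 5, they were 39, 18 and 0. On the standard diet that is 0.256%, against 0.467% of all regions, and on DDC 0.118%, against 0.35%.

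The promoter regions nearest to the threshold were, on the standard diet, those of Mylk, Dnajc6 and Ms4a14. Mylk, the myosin light chain kinase gene, was at 4.25, 4.15 and 4.32 in controls and 4.85, 4.58 and 4.78 in Fbxl5-deleted mice on the standard diet, and at 4.41, 4.35 and 4.25 against 4.72, 4.63 and 4.65 on DDC. The genotypes did not overlap on either diet, with differences of 0.50 and 0.33 (limma, adjusted p = 0.14 and 0.434). On DDC the lowest p-values were at Runx1, Mep1a and an end of Gml2. The Runx1 region was in all 3 control DDC lists (1.93, 1.82 and 2.05) and none of the other 9. Mep1a was in the same 3 lists and 1 Fbxl5-deleted DDC list. Ms4a14 was in 3 control standard-diet lists, 1 control DDC list and 1 Fbxl5-deleted standard-diet list. Runx1, Mep1a and Ms4a14 were thus tested only because of the group where they are high, and their p-values rest on the floor value. For the difference of the diet effects the lowest p-values were at Glrx2, Zfp940 and Col6a6. Glrx2, a mitochondrial glutaredoxin gene, was at 3.91, 3.54 and 3.56 against 3.93, 3.77 and 4.01 on DDC in controls and at 4.25, 3.96 and 4.20 against 3.59, 3.62 and 3.40 in Fbxl5-deleted mice. Its diet effects differed by −0.83 ± 0.20, which missed the threshold (limma, adjusted p = 0.849).

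Fbxl5 itself had a region at each end. The region from 43781400 to 43782725 on chromosome 5 contains a gene end and was at 3.01 to 3.45 in control standard-diet and 3.11 to 3.63 in Fbxl5-deleted standard-diet libraries, and at 2.91 to 3.38 and at 3.14 in all 3 libraries on DDC. The other, 594 bp from the opposite end, was absent from 1 standard-diet list of each genotype. The labels do not say which part of the gene was deleted, so neither region checks the deletion.

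The promoter regions of 12 lists of liver and stress pathways numbered 410. Between diets 0.976% of them were called in controls (1 up and 3 down), below the 2.04% of all promoter regions. In Fbxl5-deleted mice 1.22% were called (1 up and 4 down), against 1.07%. These shares rest on few calls. All 24 iron handling genes had a promoter region, 43 in all, and 0 were called in any comparison; the nearest was Fth1, the ferritin heavy chain gene, at −0.63 ± 0.21 in controls (limma, adjusted p = 0.0742). Of 23 regions at heme genes 1 fell, in Fbxl5-deleted mice: Hpx, which encodes the heme carrier hemopexin, was at 3.68, 3.17 and 3.60 on the standard diet and 2.69, 2.45 and 2.71 on DDC (−0.87 ± 0.20, limma, adjusted p = 0.0162), a call lost in 3 of the 12 analyses without 1 library. In controls Hpx stood at −0.40 ± 0.20 (adjusted p = 0.249). Of 41 regions at bile acid genes 1 fell, Slco1a1 in Fbxl5-deleted mice. Of 34 regions at drug metabolism genes 1 rose in each genotype, 915 bp from the start of Cyp2b9, a P450 gene of the phenobarbital-inducible family. It was at 2.09, 1.90 and 2.27 against 3.15, 3.33 and 3.00 in controls (1.07 ± 0.24, limma, adjusted p = 0.0101) and rose by 1.33 ± 0.24 in Fbxl5-deleted mice (adjusted p = 0.00413).

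The median of 47 regions at hepatocyte genes was 2.29 to 2.44 on the standard diet and 2.08 to 2.21 on DDC in controls. In Fbxl5-deleted mice it was 2.40 to 2.62 against 2.15 to 2.30. Of these regions 1 was called lower in each genotype, at an end of Trf, the gene of the iron carrier transferrin. It was at 2.60, 2.69 and 2.95 against 1.91, 2.08 and 1.82 in controls and 3.21, 2.99 and 3.15 against 2.19, 2.02 and 2.40 in Fbxl5-deleted mice. The falls of −0.81 ± 0.22 and −0.91 ± 0.22 (limma, adjusted p = 0.03 and 0.0271) were lost in 5 and 4 of the 12 analyses that leave out 1 library. Among 33 regions of immediate early genes Klf6 alone was called, lower in each genotype. The median of the 33 was 2.31 to 2.36 on the standard diet and 1.86 to 2.10 on DDC in controls. In Fbxl5-deleted mice it was 2.39 to 2.77 against 2.02 to 2.21, so the diets did not overlap in either genotype. That of all promoter regions was 2.97 to 3.03 against 2.89 to 2.99 and 3.02 to 3.17 against 2.89 to 3.00. Among 27 regions of stress and hypoxia genes Pfkfb3, a glycolytic regulator, fell in controls (−0.69 ± 0.16, limma, adjusted p = 0.0124). With 50% reciprocal overlap in the merging the Pfkfb3 value turned to 1.08 (adjusted p = 0.32). No region was called at the antioxidant genes (35 regions, with Nfe2l2 at −0.63 in Fbxl5-deleted mice). The same held for the cell cycle and p53 genes (26, with Cdkn1a at −0.55 in controls, or 0.82 with 50% reciprocal overlap). It also held for the lipid and cholesterol genes (39, with Sqle, at a gene end, at −0.40 in Fbxl5-deleted mice). None was called either at the circadian clock genes (39, with Tef at −0.44 in Fbxl5-deleted mice) or the inflammation genes (24, with Tnfaip3 at 0.64 in Fbxl5-deleted mice). In each of these the adjusted p was above 0.05 in limma, and the median difference of the 12 pathway lists lay between −0.23 and −0.05 log2 in controls and between −0.26 and −0.10 in Fbxl5-deleted mice, where that of all promoter regions was −0.04 and −0.08.

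Without the 2 Fbxl5-deleted standard-diet libraries that differed from the rest, 24 of 61 calls at named regions were lost, all in Fbxl5-deleted mice, and none turned sign. These were the rises at Rnf14, Ehd3, Insm2, Fam83b, Sprr1a, Tnip1, Cyp2b9 and Olfr1160 and the falls at Krt8, Cyp2d34, Cyp4a12b, Dnttip1, Klf6, Kansl3, Tle6, Zfp612, Zfp687, Ces3a, Slco1a1, Trmt12, Plxnb2, Hpx, Trf and Pcgf2. Krt8 was then at −1.34 and Cyp2d34 at −1.04 (limma, adjusted p = 0.0564 and 0.0726), and Hpx at −0.56 and Trf at −0.78 (adjusted p = 0.428 and 0.307). Pcmtd2 stayed past the threshold at 1.96 and Dnmt1 at 1.57 (adjusted p = 0.00133 and 0.0197).

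Marker genes of other liver cells differed in how many had a promoter region. All 7 hepatocyte markers had one, 14 regions in all, of which 0 were called. The median of the 14 was 2.16 to 2.30 in control standard and 2.02 to 2.13 in control DDC libraries, without overlap. In Fbxl5-deleted mice it was 2.14 to 2.42 against 2.00 to 2.31, and the diets overlapped. Of 11 macrophage and myeloid markers 4 had one, and the defining genes Adgre1, Csf1r, Clec4f, Ptprc and Timd4 had none. The median of the 6 macrophage regions was 1.27 to 1.38 in control standard and 1.69 to 2.06 in control DDC libraries, and 1.27 to 1.48 against 1.71 to 2.10 in Fbxl5-deleted mice. The diets thus did not overlap in either genotype, and 1 region, at Lyz2 (lysozyme), was called higher in controls (0.81, limma, adjusted p = 0.0308). The 2 of these regions in all 12 lists stood at −0.25 and −0.45 (Cd14) and at −0.12 and 0.09 (Spi1) in controls and Fbxl5-deleted mice, and the other 4 were in 3 to 9 lists. Of 10 sinusoidal endothelial markers 3 had a region and Pecam1, Stab1, Stab2 and Lyve1 had none, with medians of 1.39 to 1.70 and 1.49 to 2.08 in controls and 1.45 to 2.04 and 1.65 to 1.88 in Fbxl5-deleted mice.

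Of 12 stellate and matrix markers 7 had a region and Acta2, Col3a1, Des and Pdgfrb had none. Their medians were 1.27 to 2.09 against 1.66 to 2.24 in controls and 1.27 to 2.02 against 1.73 to 2.56 in Fbxl5-deleted mice, and 1 region, at Reln, fell in Fbxl5-deleted mice (−0.69, limma, adjusted p = 0.0345). Of 13 cholangiocyte and ductular markers 10 had a region, 21 in all, and Krt7, Krt19 and Cftr had none. The medians were 2.09 to 2.35 against 2.09 to 2.18 in controls and 2.11 to 2.28 against 1.90 to 2.24 in Fbxl5-deleted mice, with regions at Anxa3 and Spp1 lower in controls (−1.22 and −0.93, limma, adjusted p = 0.00621 and 0.0246). Both genes had further regions in the window that were not called: those of Anxa3, at the opposite end of the gene, stood at 0.77 and 0.30 and those of Spp1 at 0.64 and 0.21 in controls. Of 9 lymphocyte markers 1 had a region, which is nearest to the start of Gpr162. The part of these other cell types in the rises and falls above was not tested.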

How the data were processed

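ATAC-seq peaks of hepatocytes from 12 mice, 3 in each of 4 groups, were analysed as 12 lists in the mm10 build. The authors called peaks per library, and the submitters' processing notes list, without versions, MACS2, Bowtie2, fastp, Picard, SAMtools, deepTools and bedtools. The authors deposited for each peak a fold enrichment over the background of its own library, a −log10 p and a −log10 q, and the deposited summit position in bases from the peak's start. The files hold no read depths, so no counting interval was possible, and the spread between mice is the error. Whether replicates were processed apart is not stated, so p-values measure the spread between these samples.

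Lines with equal coordinates were joined, an equal number of the strongest peaks per library by fold enrichment kept on chromosomes 1 to 19 and X (nearly all peaks of the shortest list), and peaks merged at 1 bp of overlap (292576 regions, of which 138502 in at least 3 lists). Taking equal numbers and ranking removes any change shared by most regions. Each peak then took the log2 fold enrichment that its rank has on average over the 12 libraries. Start positions and strand came from RefSeq promoters (GRCm38.p6) for 17274 of 21631 protein-coding genes, and for 4357 either end of the gene was used. Regions were compared with limma 3.58.1 in R 4.3.3 (4 group means, trended robust variance, Benjamini-Hochberg over all 138502). Values per library were compared by exact permutation within diet or genotype (400 relabellings, smallest p 0.005). On simulated data with 200 changed regions, 35% of those changed by 1 log2 and 90% of those changed by 2 were recovered in the diet comparison in floxed controls, with 8 false calls among 138502 regions. The simulation drew independent normal noise around each region's mean. It had no floor for absent peaks, no ranking and no differences between libraries, so it does not give the error rate of the calls above. Other steps used scipy 1.17.1, pandas 2.3.3, numpy 2.4.6 and matplotlib 3.10.9 under Python 3.11.15.

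Named were, per diet comparison, the 8 largest rises and falls among called promoter regions in all 12 lists and 4 per direction in 3 lists of 1 diet and 0 of the other. Also named were the 3 lowest p-values where nothing was called, up to 2 called regions per gene list (or the lowest p), the 10 highest values and Fbxl5. A region bears the name of the gene with the nearest start. Regions and lists were chosen with earlier results of these data known. The tests of summits, of CpG-rich promoters, of promoter against other values and of mean absolute differences, with their alternatives, were added after seeing the data. The 14 motifs, searched on both strands, with matches of different motifs allowed to overlap, were SP/KLF (GGGCGG), ETS (CCGGAAG), NFY (CCAAT), NRF1 (GCGCNTGCG), CRE (TGACGTCA), YY1 (AAGATGGC), the TATA box (TATAAA), the E-box (CACGTG), AP-1 (TGANTCA), HNF4 (CAAAGTCC), CEBP (TTGCNNAA), HNF1 (GTTAATNAT), TEAD (GGAATG) and CTCF (AGGTGGC). Alternatives changed the peaks, overlap, values, filter, window, covariates and libraries.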

Additional observations from a re-analysis of the deposited data

How the results depend on the processing

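Promoter regions called between diets numbered 391 (256 higher, 135 lower) in controls and 205 (116, 89) in Fbxl5-deleted mice. Leaving out 1 library gave 163 to 431 and 74 to 239, and leaving out Fbxl5-deleted standard-diet libraries 1 and 3 together gave 31 in the latter. With the lowest kept fold enrichment as a covariate they were 54 and 115, with ranks by −log10 p 721 (51.5% higher) and 427 (46.6% higher), and with no filter on regions 118 and 60. With only regions in all 12 lists 178 (47.8% higher) were called in controls and 148 (39.9% higher) in Fbxl5-deleted mice. In Fbxl5-deleted mice 80 were called with 50% reciprocal overlap and 325 with only peaks of −log10 q of at least 5. Unranked fold enrichment gave 418 (84.0% higher) and 241 (92.1% higher). The cause of these shifts was not tested.

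Between genotypes 0 were called. The exceptions on the standard diet were 21 with 50% reciprocal overlap, 39 with the stricter q, and 0 to 6 without 1 library. On DDC they were 24 and 18, and for the difference of the diet effects 13 with reciprocal overlap. The shares of all regions called in these settings are given above. With the replicate number as a block (replicate block) the calls were 370, 182, 0, 0 and 0. Same-numbered libraries of different groups correlated at −0.024 to 0.057 in their deviations, none above 0.1, so the numbers were not taken as pairs. Of 61 calls at named regions 1 was lost with the block, 25 with the covariate, 24 without libraries 1 and 3, 16 without a filter, 12 unranked, 4 with all peaks and 3 with ranks by −log10 p. Of 58 that could be matched under reciprocal overlap 30 were lost and 3 turned, and of 57 with the stricter q 19 were lost.

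The diet difference of the median promoter value was −0.0636 without libraries 1 and 3, 0.0824 unranked and −0.12 to −0.0834 without 1 library. The genotype difference was −0.105 unranked and 0.0289 to 0.0657 without 1 library. The share of kept peaks near starts differed between diets by 0.0835 points with all peaks and −2.69 with the stricter q (exact permutation p = 0.94 and 0.01), and by −0.373 to −0.176 without 1 library. Between genotypes it differed by 1.67 with the stricter q, −1.84 with all peaks (exact permutation p = 0.295) and −0.312 to −0.115 without 1 library. The summit share differed between diets by 1.91 points without libraries 1 and 3 and by 2.47 to 3.13 without 1 library, and between genotypes by 0.112 and −1.11 to −0.444. The gap between CpG-rich and other promoters differed between diets by −0.0767 to −0.0589 without 1 library. Between genotypes it was 0.0234 to 0.0413 without 1 library, past the threshold in 7 of 12, and 0.016 without libraries 1 and 3. The gap in mean absolute difference was −0.000908 with no filter. Under 50% reciprocal overlap, Pfkfb3 was 1.08 and Cdkn1a 0.817 in controls, and Zfp687 0.334 and Zfp612 0.0341 in Fbxl5-deleted mice. The cause was not tested.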

Other observations

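Starts shared by genes on both strands and some gene families were not described above. The 1258 promoter regions near starts on both strands had a median value of 3.43 log2, against 3.01 for 13413 regions near the start of 1 gene of known strand. Of the former 0.556% were called between diets in controls and 0.636% in Fbxl5-deleted mice, and of the latter 1.98% and 1.13%. Of 85 ribosomal protein genes 82 had a promoter region, with 0 of 115 regions called in any comparison by limma. The nearest, at an end of Rpl8, was at −0.64 in Fbxl5-deleted mice (limma, adjusted p = 0.0982). Of 53 regions at proteasome genes 1 fell in each genotype, both shared with a neighbouring gene. The Sirt3 region was in the 3 control standard-diet lists and no other, so it was tested only because of the group where it is high. The call at Pcgf2 in Fbxl5-deleted mice was lost in 5 of the 12 analyses without 1 library. Of 48 regions at histone genes H4c3 fell in controls (−0.44, limma, adjusted p = 0.0372), a call lost in 5 of the 12 analyses without 1 library. Of 442 regions at zinc finger genes 1 rose in controls, and 1 rose and 2 fell, at Zfp687 and Zfp612, in Fbxl5-deleted mice. Beside these counts, 2.04% of all promoter regions were called between diets in controls and 1.07% in Fbxl5-deleted mice. Of all tested regions 7.02% and 3.15% were.

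Olfactory and vomeronasal receptor genes, which serve in sensory neurons, had the lowest share of genes with a promoter region among the 17 gene lists, at 23 of 1465 (1.57%). Of their 24 regions 2 rose and 1 fell in controls and 2 rose in Fbxl5-deleted mice, which are few calls. The shares called were 2.04% and 1.07% of all promoter regions and 7.02% and 3.15% of all tested regions. The region 537 bp from the start of Olfr52 was at 1.40, 1.68 and absent on the standard diet and 2.30, 3.86 and 3.58 on DDC in controls (1.80 ± 0.31, limma, adjusted p = 0.00137). In Fbxl5-deleted mice Olfr52 stood at 2.21, 2.46 and 2.56 against 3.30, 2.99 and 2.69. The diets did not overlap there either, and the difference of 0.58 ± 0.31 missed the threshold (limma, adjusted p = 0.35). Receptor genes of this family have close copies, so these peaks are uncertain.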
